A study of Mus musculus with 14 samples.

Results

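The 935 loci described here are stretches of the mouse genome that gave reads, carried no gene name in the deposited tables, and lay within 1000 bases of a named locus without overlapping one. A locus is the unit in which the authors gave expression values, a coordinate range of assembled reads or of a gene. A locus was taken when its level reached 0.5 FPKM (fragments per kilobase of transcript, scaled to the library's total) in at least 3 of the 14 libraries and the gap to the nearest named range was at most 1000 bases. Of the 67811 loci in the tables, 14314 had no name and 2105 of these lay within 1000 bases of a named one. The level limit left the 935, among 18217 loci of all kinds that reached it.

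The libraries were made from polyadenylated RNA of whole heads, brain included, of C57BL/6J mouse embryos at E12.5. There were 5 libraries of genotype Zcchc8+/+ (WT), 3 of Zcchc8+/- (HET) and 6 of Zcchc8-/- (KO), and no group received any treatment according to the labels. The part of Zcchc8 that was altered, the sex of the embryos and which embryo each library came from are not stated in those sources, so the p-values may measure only technical spread. In bulk heads, fewer cells of a type and less RNA per cell cannot be told apart.

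The protein ZCCHC8 holds together the NEXT complex (nuclear exosome targeting), whose other parts are the RNA-binding protein RBM7 and the helicase MTR4, encoded by Skiv2l2. NEXT delivers short unprocessed RNAs in the nucleus to the exosome, which degrades them. Active mammalian promoters are commonly transcribed in both directions. The transcripts that run upstream, away from the gene, usually end early and are kept at low levels by the exosome, and they are known as promoter upstream transcripts. The comparison of KO with WT heads asks how the level of such RNA differs when Zcchc8 is mutated.

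Most of the unnamed loci lay just upstream of a gene. With the GENCODE M21 annotation, 819 of the 935 (87.6%) lay within 1000 bases upstream of a gene start, and for 783 of them the gene was protein-coding. The DNA of 6 such promoters is printed because their unnamed loci were those with the highest KO levels among the loci named below that have a matched RefSeq promoter. Each line gives the 250 bases before the RefSeq gene start (GRCm38.p6, the same coordinates as mm10), on the gene's own strand and ending at the base before the start, with the bases that the unnamed locus covers in capitals. The windows are chr9:72662081-72662330 (plus strand) for Nedd4, chr19:29251553-29251802 (plus) for Jak2, chr13:49420992-49421241 (plus) for Ippk, chr1:134362000-134362249 (minus) for Tmem183a, chr13:5861239-5861488 (plus) for Klf6 and chr1:39367601-39367850 (plus) for Rpl31.
Nedd4: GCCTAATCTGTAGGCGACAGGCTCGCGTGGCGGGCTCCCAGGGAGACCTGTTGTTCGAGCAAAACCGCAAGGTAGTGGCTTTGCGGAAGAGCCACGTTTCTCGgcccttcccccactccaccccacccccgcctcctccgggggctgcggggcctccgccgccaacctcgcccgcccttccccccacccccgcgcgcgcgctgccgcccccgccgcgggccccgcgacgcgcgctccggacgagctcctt
Jak2: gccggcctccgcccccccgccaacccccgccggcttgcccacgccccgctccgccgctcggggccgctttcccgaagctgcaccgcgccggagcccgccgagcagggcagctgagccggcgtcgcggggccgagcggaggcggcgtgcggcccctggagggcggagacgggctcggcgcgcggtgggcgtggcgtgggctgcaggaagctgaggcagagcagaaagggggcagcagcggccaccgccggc
Ippk: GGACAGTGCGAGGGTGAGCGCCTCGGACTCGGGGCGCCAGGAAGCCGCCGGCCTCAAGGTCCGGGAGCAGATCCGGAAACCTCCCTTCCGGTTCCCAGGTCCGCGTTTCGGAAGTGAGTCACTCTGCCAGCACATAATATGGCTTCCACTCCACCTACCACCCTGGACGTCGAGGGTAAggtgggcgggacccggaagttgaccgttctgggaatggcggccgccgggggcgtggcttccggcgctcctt
Tmem183a: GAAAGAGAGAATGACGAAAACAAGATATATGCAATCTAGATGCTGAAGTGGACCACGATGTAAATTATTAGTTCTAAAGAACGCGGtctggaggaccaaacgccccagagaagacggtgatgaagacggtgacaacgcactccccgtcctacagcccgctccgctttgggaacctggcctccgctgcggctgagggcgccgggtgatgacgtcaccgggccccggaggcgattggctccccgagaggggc
Klf6: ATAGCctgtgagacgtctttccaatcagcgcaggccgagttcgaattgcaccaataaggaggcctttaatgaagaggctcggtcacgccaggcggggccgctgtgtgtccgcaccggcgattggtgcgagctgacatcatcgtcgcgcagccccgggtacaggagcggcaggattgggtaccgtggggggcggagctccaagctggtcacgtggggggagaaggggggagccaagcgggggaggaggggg
Rpl31: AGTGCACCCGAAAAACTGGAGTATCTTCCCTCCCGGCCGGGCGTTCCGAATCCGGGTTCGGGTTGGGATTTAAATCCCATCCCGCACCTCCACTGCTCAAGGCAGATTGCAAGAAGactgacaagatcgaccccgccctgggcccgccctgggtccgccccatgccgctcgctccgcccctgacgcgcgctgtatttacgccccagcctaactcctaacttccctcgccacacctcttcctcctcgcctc

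The unnamed loci reached into these windows from the far end and stopped short of the gene start. The locus beside Ippk covered 179 of the 250 bases, that beside Rpl31 116, that beside Nedd4 103, that beside Tmem183a 86 and that beside Klf6 the first 5. The Jak2 window has no capitals, since its unnamed locus ended farther upstream. A script searched the letters GGGCGG (the core of the GC box bound by SP1), CCAAT (the CCAAT box), TATAAA (the TATA box), AATAAA (the polyadenylation signal) and GGTAAG (a 5′ splice site) on both strands, counting each motif separately where matches shared bases. In the printed windows GGGCGG occurred 4 times on the strand opposite to Rpl31 and 2 times on the strand opposite to Nedd4. It also occurred 1 time on each strand beside Jak2 and 1 time on the gene's strand beside Ippk and Klf6. CCAAT occurred 2 times on each strand beside Klf6 and 1 time on the strand opposite to Tmem183a, and AATAAA occurred in none of the 6. TATAAA and GGTAAG were not counted window by window. These matches are letters in a window and not measured sites.

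The same search covered all the promoters that could be matched. Of the 819 loci beside a gene start, 629 had a RefSeq promoter of that gene, and 553 of these had RefSeq and GENCODE starts within 100 bases of each other, which gave 544 distinct promoters. In the 250 bases before the start, these had a median GC content of 63.6% and a median of 20 CpG dinucleotides, against 52.4% and 6 over all 32807 RefSeq mouse promoters in the table. GGGCGG was present on either strand in 72.2% of them against 32.7% of all, and CCAAT in 45.6% against 33.8%. TATAAA was present in 3.86% against 12.4%, GGTAAG in 3.68% against 7.84%, and AATAAA in 6.43% against 18.1%. On the strand opposite to the gene alone, whose letters match the RNA of a transcript running upstream, AATAAA was present in 1.84% against 9.49%. On the gene's strand it was present in 5.33% against 10.4%. GGTAAG was present in 2.02% against 3.72% on the opposite strand and in 1.65% against 4.26% on the gene's strand. The first set belongs to genes beside loci with reads in these heads, 783 of the 819 protein-coding, whereas the table holds promoters of genes of all kinds and levels, and the part of this in the gaps was not tested.

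The loci were short and close to their genes. Among the 819, the distance from the locus to the gene start had a median of 164 bases (quartiles 99 and 274, range 4 to 998), and 210 lay within 100 bases, 583 within 250 and 754 within 500. All 935 spanned a median of 1203 bases (quartiles 693.5 and 2087.5, range 114 to 282262). The rest lay within 1000 bases downstream of a gene end (33), inside or over a gene of the GENCODE annotation that the tables did not name there (27), or beside neither a start nor an end (56). The 2105 unnamed loci within 1000 bases include 1170 below the level limit, and of those 801 (68.5%) lay beside a gene start, against 87.6% of the 935. The plot of distances shows the pile-up before gene starts.

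**Figure D1:**
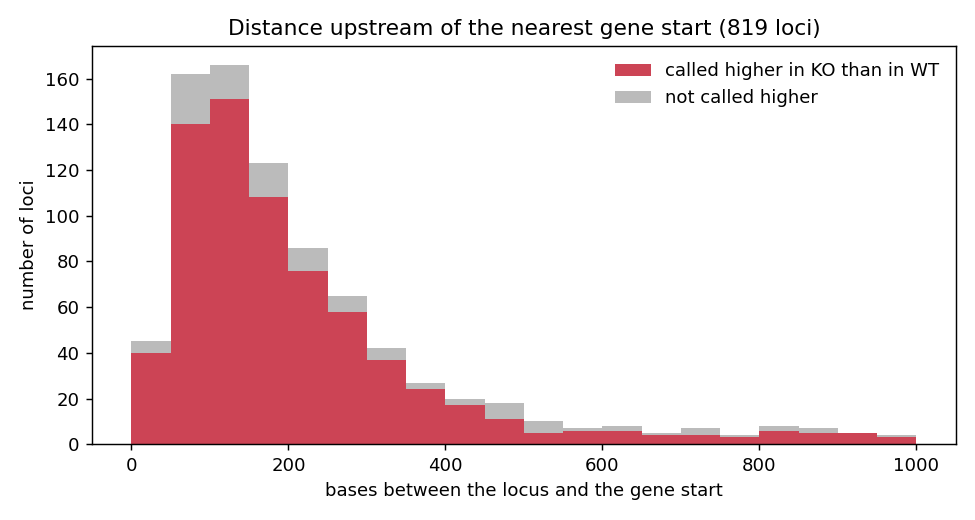
Number of unnamed loci (vertical axis) by the bases between the locus and the gene start it lies upstream of (horizontal axis, bins of 50 bases), for the 819 loci beside a gene start. Red counts the loci called higher in KO than in WT and grey the others; 583 of the 819 lie within 250 bases.

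A strand could be read for some of the loci. The loci in the tables are listed in 3 passes along each chromosome. Of the named loci matched to GENCODE, 91.6% in the first pass lay on the plus strand and 91.7% in the second on the minus strand, so a locus in either pass was given that strand, while the last of the 3 passes holds nearly only unnamed loci and gives none. Among the 796 loci beside a gene start alone, 298 ran opposite to the gene, 53 ran the same way and 445 had no strand. The 298 opposite loci spanned 1769.5 bases in the median, and their median level was 1.14 FPKM in KO against 0.0588 FPKM in WT. The 53 given the gene's own strand had medians of 0.981 FPKM in KO and 0.0571 FPKM in WT. Among the matched named loci, 8.41% in the first pass lay on the minus strand and 8.33% in the second on the plus strand. Some of the 53 may therefore be opposite loci given the wrong strand. The level limit also favoured high KO levels for most of the unnamed loci. For both reasons the similar medians do not show whether the orientations differ, and this was not tested.

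Before these loci are compared, the libraries are described. Zcchc8 itself (chr5:123698294-123721100) was at 40.8, 38.1, 40.8, 36.6 and 42.3 FPKM in WT1 to WT5, at 26.0, 24.0 and 27.2 FPKM in HET3 to HET5, and at 9.27, 14.4, 15.1, 15.1, 20.6 and 18.7 FPKM in KO1 to KO6, with no overlap between genotypes. KO stood at -1.39 log2 relative to WT (SE 0.15, limma-trend adjusted p = 2.1e-06), and the two-sided exact permutation test gave p = 0.00433 for KO and p = 0.0357 for HET, whose limma-trend adjusted p was 1. Total depth is unknown, since the files hold no read counts, and relative depth read from the lowest FPKM steps ran from 1.0 to 1.20 in WT, 1.23 to 1.32 in HET and 1.15 to 1.49 in KO.

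In WT heads the unnamed loci were close to silent. The median over the 935 was 0.0323, 0.0291, 0.0324, 0.0243 and 0.0255 FPKM in WT1 to WT5, and 0.0355, 0.0303 and 0.0307 FPKM in HET3 to HET5. In KO1 to KO6 it was 0.719, 1.01, 1.10, 1.03, 1.32 and 1.18 FPKM. The number of loci at 0.5 FPKM or more was 125 to 144 in the WT libraries, 131 to 141 in the HET libraries and 637, 790, 790, 792, 846 and 853 in KO1 to KO6. WT and HET libraries therefore overlapped, and every KO library stood above all of them. The summed level of the loci of 300 bases or longer was 202 to 224 FPKM in WT, 203 to 218 FPKM in HET and 889 to 1548 FPKM in KO.

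**Figure D2:**
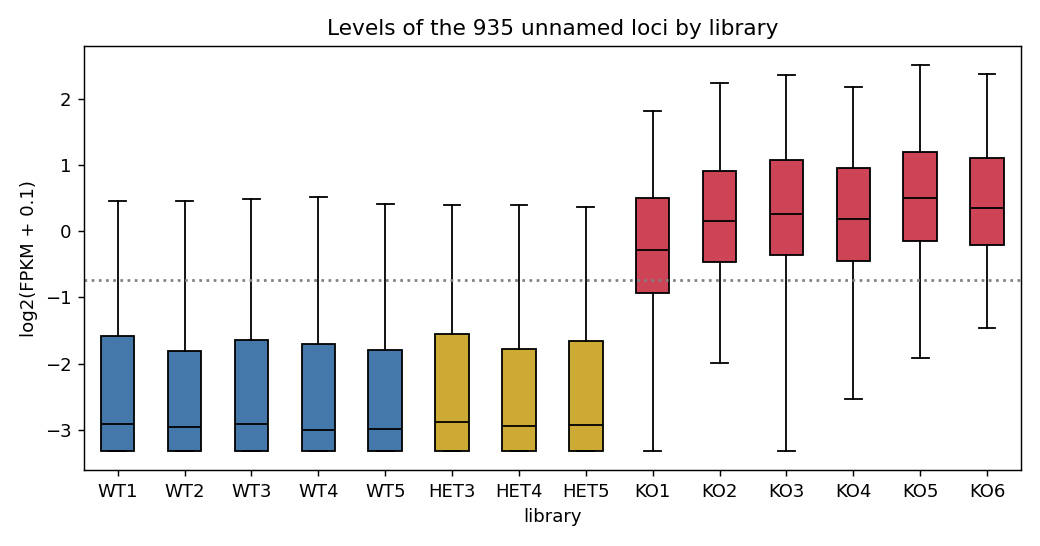
Levels of the 935 unnamed loci in each of the 14 libraries, as log2(FPKM + 0.1). Boxes span the quartiles with the median as a line, whiskers the 5th to 95th percentile, and the dotted line marks the 0.5 FPKM limit; the KO boxes lie above the WT and HET boxes, with KO1 the lowest of the 6.

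This contrast was in large part built into the choice of loci. Only 148 of the 935 reached the level limit in the 8 WT and HET libraries alone, and the other 787 reached it only with the help of KO libraries. The choice of those 787 favoured high KO levels, so their difference is a description and no test of it is given as support. For the 148 the level limit did not use the KO values. Whether KO reads helped to set the ranges of the loci is unknown.

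Of the 148 loci that passed without the KO libraries, 66 were called higher (44.6%) and 1 lower by limma-trend at an adjusted p under 0.05, against a background of 8.08% higher and 6.73% lower over the 15177 loci of all kinds that passed in the same way. Their median log2 difference was 0.58, against -0.03 over those 15177. The 66 rises ran from 0.34 to 5.17 log2 with a median of 1.47. Quantile normalization of all libraries moved the split to 45 higher and 21 lower. The authors' quantile-normalized matrix gave 68 higher and 3 lower of 145. Over all tested loci, including those that passed only through KO libraries, quantile normalization gave 2338 higher and 3801 lower of 18217. The authors' matrix gave 7347 higher and 282 lower of 17902, so its 68 of 145 is not read as an excess. By place, in the fit of the deposited values, 58 of the 105 beside a gene start rose and none fell (median log2 difference 0.97). Elsewhere, 8 of the 43 rose and 1 fell (median 0.11).

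The largest of these rises, named here after their values were seen and among loci of 300 bases or longer, are given with their libraries. Nedd4 encodes a ubiquitin ligase, and the unnamed locus on its opposite strand (chr9:72659717-72662183, 162 bases from the start) was at 0.539, 0.331, 0.614, 0.518 and 0.432 FPKM in WT1 to WT5 and at 0.507, 0.564 and 0.368 FPKM in HET3 to HET5. In the KO libraries it ran from 9.23 to 14.6 FPKM with a median of 11.9, 4.34 log2 above WT (SE 0.15, adjusted p = 2.1e-11 in the limma-trend fit). WT and HET overlapped, and the lowest KO library was above the highest of both.

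Jak2 encodes a kinase that signals from cytokine receptors. The locus opposite to it (chr19:29237976-29251523, 304 bases from the start) was at 1.19, 1.35, 1.70, 1.31 and 1.72 FPKM in WT and at 1.66, 1.30 and 1.29 FPKM in HET. It ran from 8.34 to 13.1 FPKM in KO, with a log2 difference from WT of 2.75 (SE 0.12, limma-trend adjusted p = 1.9e-10). Beside Ippk, which encodes an inositol phosphate kinase, the locus (chr13:49419982-49421170) had means of 0.991 ± 0.264 FPKM in WT (SD, n = 5) and 6.89 FPKM in KO. Its log2 difference was 2.70 (SE 0.17), and that of the locus opposite to 1700025G04Rik (chr1:152090416-152093584), whose mean was 0.435 FPKM in WT and 4.47 FPKM in KO, was 3.13 (SE 0.20). A locus opposite to Birc6, an apoptosis inhibitor, which lay 51 bases before its start and overlapped another GENCODE gene, rose by 2.39 log2 (SE 0.19). The locus opposite to Agpat5 rose by the same 2.39 log2 with an SE of 0.73, from 0.635 to 3.14 FPKM, and its call was lost without filter, with the replicate number as a block (2.34) and without WT1, WT2, KO2, KO4, KO5 or KO6 in turn (1.78 to 2.37).

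All unnamed loci within 1000 bases were also counted with no limit on level. Of the 2006 unnamed loci within 1000 bases that were above 0 in at least 1 library, 957 (47.7%) were called higher in KO than in WT and 1 lower in a limma-trend fit of all 47204 loci above 0, whose background was 9.97% higher and 1.53% lower. Named loci in that fit were called higher in 8.001% of 34083. Of the 2006, 457 were above 0 in KO libraries alone and could differ only upwards, and 107 of these were among the 957. The other 1549 were above 0 in at least 1 WT or HET library, a count added after the data were seen. Of these, 850 (54.9%) were called higher and 1 lower, against 11% higher and 1.86% lower over the 38665 loci of all kinds above 0 in a WT or HET library. Beside a gene start 773 of 1194 were called higher and none lower, with a median log2 difference of 2.097, and elsewhere 77 of 355 were called higher and 1 lower, with a median of 0.19.

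Over the 935 loci, given as a description, 766 (81.9%) were called higher in KO than in WT and 1 lower, where the background over all 18217 tested loci was 19% higher and 5.61% lower. Every KO library lay above every WT library for 700 of the 935, against 15.3% of all tested loci. The median log2 difference was 2.76 over the 935 and -0.0019 over all tested loci. Of the 766, the difference was at least 1 log2 for 738, at least 2 for 653, at least 3 for 380 and at least 4 for 114. The 168 loci not called had a median SE of 0.638 log2, against 0.243 for those called higher, and 70 of them were shorter than 300 bases. The calls by place were 709 of 819 beside a gene start and 57 of 116 elsewhere.

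Length went with the calls as well. Of the 103 loci under 300 bases 33 were called higher, of the 280 from 300 to under 1000 bases 242, of the 462 from 1000 to under 5000 bases 424, and of the 90 that were longer 67. Unnamed loci in other positions passed the same limits, and the same fit called higher 134 of 214 that overlapped a named locus, 203 of 404 that lay 1 to 10 kb away and 213 of 451 that lay beyond 10 kb. Their median log2 differences were 1.61, 1.57 and 1.49. These sets were also chosen with the KO libraries among the 14, so the differences between the shares were not tested.

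In absolute terms the loci stayed low in KO heads. Their mean KO level was at least 1 FPKM for 509 and at least 5 FPKM for 41. In WT, 103 were listed at 0 in all 5 libraries, of which 59 were also at 0 in all 3 HET libraries and 88 were called higher in KO. A fold change has no meaning for these, and the log2 differences on the log2(FPKM + 0.1) scale understate the change of all loci this low in WT.

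The 12 largest rises among loci that averaged 1 FPKM or more in KO and had no overlap between KO and WT libraries, from 415 such loci, are described next, with levels first and no test since 11 of the 12 owed their place to the KO libraries. The exception is the locus beside Mtmr9, which reached the limit in WT and HET. The largest lay beside Hnrnpa3, which encodes an RNA-binding protein of nuclear ribonucleoprotein particles. It was 276 bases upstream of, and opposite to, the small RNA gene Gm24574 that the tables place in the same named locus (chr2:75644464-75658967). It was at 0.237, 0.127, 0.312, 0.0762 and 0.0951 FPKM in WT1 to WT5 and at 0.250, 0.178 and 0.0751 FPKM in HET3 to HET5. In KO it ran from 11.7 to 22.1 FPKM with a median of 16.9, and its log2 difference from WT was 6.03 (SE 0.24). HET overlapped WT, and both were far below KO.

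The locus next to RP23-460N4.2, a clone-named gene, lay beside neither a start nor an end in GENCODE (chr6:51167479-51172730). Its mean rose from 0.0440 ± 0.0244 FPKM in WT (SD, n = 5) to 8.51 ± 2.31 FPKM in KO (SD, n = 6), a log2 difference of 5.87 (SE 0.19). Upstream of Tmem183a, a gene for a transmembrane protein, the locus (chr1:134362164-134364895) was at 0.0738 FPKM in WT2 and at 0 in WT1, WT3, WT4 and WT5, and at 0.298, 0 and 0.0195 FPKM in HET. It ran from 2.50 to 8.78 FPKM in KO with a median of 6.42. Its promoter is among those printed above, and the log2 difference was 5.73 (SE 0.37).

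Prpf8 encodes the large protein at the heart of the spliceosome. The locus 173 bases before it (chr11:75486266-75486642) was listed at 0 in all 5 WT and all 3 HET libraries, and ran from 2.97 to 5.14 FPKM in KO with a median of 4.61. Rpl31 encodes a ribosomal protein, and the locus opposite to it (chr1:39363465-39367716) was at 0.101, 0.0348, 0.020, 0.0169 and 0.0178 FPKM in WT and at 0.0616, 0.230 and 0.0614 FPKM in HET. It ran from 3.63 to 6.50 FPKM in KO, a log2 difference of 5.21 (SE 0.22). That locus also lay within 1000 bases of the end of Npas2. Both loci were far higher in each KO library than in any other library.

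Wnk1 encodes a kinase that controls ion transport, and the locus 264 bases before it (chr6:120038937-120039426) was at 0.0729, 0.0314, 0, 0.0309 and 0 FPKM in WT, 0.442, 0.0295 and 0.217 FPKM in HET, and 2.61 to 6.32 FPKM in KO. It was 1 of the loci in which 2 HET libraries stood above all WT libraries. Ppp1r21 encodes a protein of the endosome, and its locus (chr17:88528915-88530031) was at 0.0232, 0, 0.0451, 0.00964 and 0.0303 FPKM in WT, 0, 0 and 0.00887 FPKM in HET, and 2.52 to 4.74 FPKM in KO. Here HET lay within or below the range of WT, and the log2 difference of KO was 5.00 (SE 0.18).

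The other 5 of the 12 had KO means between 3.52 and 7.999 FPKM. Kif2c encodes a kinesin of the mitotic spindle, and the locus opposite to it (chr4:117182700-117183652) averaged 0.0285 FPKM in WT, 0.0501 FPKM in HET and 4.12 FPKM in KO. Mak16 encodes a factor of ribosome assembly, and the locus 9 bases before its start (chr8:31168774-31169796), whose nearest named locus is Tti2, averaged 0.0147 FPKM in WT and 4.42 FPKM in KO. The locus opposite to Clptm1l (chr13:73602106-73603920) averaged 0.00981 FPKM in WT and 3.52 FPKM in KO. All 3 were higher in each KO library than in any WT or HET library.

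The remaining 2 were short and their values scattered. The 170-base locus upstream of Tlk1, a kinase of chromatin assembly (chr2:70826578-70826747), was listed at 0 in all WT libraries, was at 0.620, 0 and 1.63 FPKM in HET, and ran from 0.813 to 14.8 FPKM in KO with a median of 6.14, so KO overlapped HET. The 179-base locus upstream of Mtmr9, which encodes a partner of myotubularin lipid phosphatases (chr14:63544858-63545036), was at 0, 0.533, 0, 0 and 0.675 FPKM in WT, at 0.942, 1.97 and 0 FPKM in HET, and from 5.14 to 12.2 FPKM in KO. Its log2 difference from WT was 5.17 (SE 0.78). In loci this short, few fragments give a large FPKM.

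**Figure D3:**
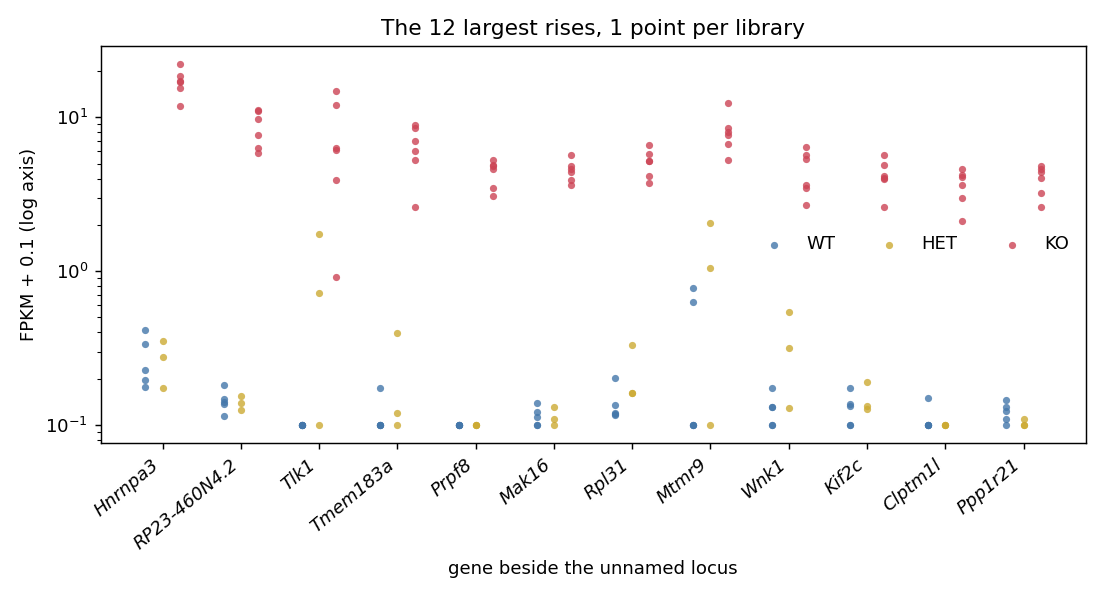
FPKM + 0.1 (log axis) of the 12 unnamed loci with the largest rises, named by the gene beside them, with 1 point per library for WT (blue), HET (yellow) and KO (red). KO points lie above all WT points in each of the 12, and overlap HET points only beside Tlk1.

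The unnamed loci were next grouped by chosen lists of genes, which do not hold every gene of a function. The counts stand beside 81.9% called higher of all 935 and 19% of all tested loci. The list of 31 immediate early genes and Id genes, which are switched on quickly by signals, had 7 unnamed loci beside its genes. None of the 7 was named after an Id gene, and 5 were called higher in KO and none lower. Trib1 encodes a pseudokinase that steers protein degradation, and the locus opposite to it (chr15:59647099-59648089) was at 0.298, 0.256, 0.374, 0.290 and 0.320 FPKM in WT and at 0.239, 0.351 and 0.492 FPKM in HET. In KO it ran from 10.4 to 14.1 FPKM with a median of 12.498, a log2 difference of 4.94 (SE 0.14). The KO mean of 12.47 FPKM exceeded the level of Trib1 itself in KO, 6.09 FPKM, and Trib1 differed by -0.03 log2. Klf6 encodes a zinc finger transcription factor, and its locus (chr13:5859541-5861243) averaged 0.136 ± 0.0415 FPKM in WT (SD, n = 5) and 5.51 ± 1.29 FPKM in KO (SD, n = 6). The loci beside Myc, Klf4 and Dusp1 averaged 1.62, 0.813 and 1.27 FPKM in KO against 0.280, 0.187 and 0.363 FPKM in WT, and those beside Gadd45g and Jund, with log2 differences of 0.72 and 0.70, were not called.

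The 57 listed neural and patterning transcription factors had 3 unnamed loci, and all 3 were called higher in KO. The locus 566 bases before Foxp2, a forkhead factor of developing neurons, ran the same way as the gene (chr6:14898441-14900782) and averaged 0.0213 FPKM in WT and 2.24 FPKM in KO. The locus beside En1, the homeobox factor of the midbrain and hindbrain border (chr1:120600659-120602158), averaged 0.0586 FPKM in WT and 0.576 FPKM in KO, a log2 difference of 2.13 (SE 0.25), and its call was lost under quantile normalization (0.29). Foxp2 and En1 themselves differed by 0.15 and 0.0049 log2 and were not called.

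The list of 61 splicing and RNA processing genes did not hold Hnrnpa3, beside the largest rise above. Beside the genes on it, all 6 unnamed loci were called higher in KO. They comprised those of Prpf8 and Mak16 above, the locus beside Srsf6, which encodes a splicing factor (0.0130 FPKM in WT and 2.11 FPKM in KO), those beside Sf3b1 and Tra2a, and 1 between Hnrnpm and March2 that was listed at 0 in all WT and HET libraries and averaged 0.803 FPKM in KO. The list of 40 translation and ribosome genes did not hold Rpl31, whose locus was among the largest rises above. Beside the genes on it, 9 of 10 unnamed loci were called higher. The locus opposite to Eif1, a factor that picks the start codon (chr11:100318459-100319764), averaged 0.00160 FPKM in WT, 0.0493 FPKM in HET and 1.94 FPKM in KO. That opposite to the ribosomal protein gene Rpl23 (chr11:97782583-97784357) averaged 0.0182 FPKM in WT and 1.22 FPKM in KO, and the 124-base locus beside Sars, listed at 0 in 11 of the 14 libraries, was not called. Under quantile normalization the calls were 3 of 7, 2 of 3, 6 of 6 and 5 of 10 for these groups in the order given. The groups are small, most of their loci passed only through the KO libraries, and nothing particular to a function is read from the counts.

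Zcchc8 has an unnamed locus of its own upstream, which was singled out after its values were seen. It spans 663 bases on the strand opposite to Zcchc8 (chr5:123721214-123721876), 113 bases from the start. Among the WT and HET libraries only WT5, at 0.0753 FPKM, was above 0, and the locus was at 0.331, 0.461, 0.590, 0.512, 1.10 and 0.726 FPKM in KO1 to KO6. The log2 difference of KO from WT was 2.61 (SE 0.27), while Zcchc8 itself was the neighbour with the largest fall, and the call was lost under quantile normalization (0.89).

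Some of the loci were already well above the rest in WT heads. Of the 61 with a WT mean of at least 1 FPKM, the Jak2 locus among them, 17 were called higher in KO (27.9%) and 1 lower, against 5.98% higher and 7.25% lower over all 13316 tested loci with such a mean. The median log2 difference of the 61 was 0.24. The 6 with the highest WT means were not called. The 128-base locus beside the pseudogene Zfp422-ps was highest, with a mean of 133 ± 77.5 FPKM in WT (SD, n = 5) and 160 ± 75.5 FPKM in KO (SD, n = 6). The locus beside Smad4, a mediator of TGF-beta signalling, had the tightest values of the 6, at 14.1, 14.3, 12.49, 13.7 and 11.9 FPKM in WT and 13.1 to 19.5 FPKM in KO, and its log2 difference was 0.19 (SE 0.09, limma-trend adjusted p = 0.16). The loci beside Gm16216, Chd9, Aff2 and Gm9449 were all under 300 bases, and WT and KO overlapped at each.

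A single locus was called lower in KO, beside the clone-named gene AC148089.1 (chr8:19704266-19707722). It was at 1.32, 1.10, 1.54, 1.19 and 1.35 FPKM in WT, 0.931, 1.21 and 0.644 FPKM in HET, and 0.210 to 1.10 FPKM in KO with a median of 0.711. The highest KO library (KO5, 1.105 FPKM) stood just above the lowest WT library (WT2, 1.101 FPKM), so the ranges overlapped. The log2 difference was -0.96 (SE 0.31, limma-trend adjusted p = 0.034). The call was lost without filter and without WT1, WT3, WT4, WT5, KO2 or KO4 in turn, with differences from -0.98 to -0.84 log2.

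HET heads were compared with WT next, a contrast in which neither side was favoured by the level limit. None of the 935 loci was called in either direction by limma-trend, against a background of 0.00549% higher and 0% lower. At an unadjusted p under 0.05 there were 30 (19 higher and 11 lower), or 3.21% of the loci against 1.94% of all tested. The HET mean was above the WT mean for 431 loci and below it for 445, and the median log2 difference was 0. For the 12 largest rises in KO, the HET means lay between 0 and 0.970 FPKM. Zcchc8 in the same HET libraries averaged 25.7 ± 1.64 FPKM (SD, n = 3) against 39.7 ± 2.32 FPKM (SD, n = 5) in WT. The fit did not call this difference of Zcchc8 either, so the lack of calls among the loci does not show equal levels.

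KO was also compared with HET, with the same KO libraries as in the comparison with WT. As a description, since 787 of the 935 passed only with KO libraries, 740 of the 935 loci were called higher and 1 lower. The background was 17.9% higher and 4.36% lower, and the median log2 difference was 2.73. The calls shared with the comparison of KO with WT numbered 735. Of the 148 loci that passed in WT and HET alone, 58 were called higher than in HET (39.2%) and 1 lower. Over the 15177 loci of all kinds that passed in that way, 7.47% were called higher and 794 loci lower. Beside Nedd4 and Jak2, HET and WT means were nearly the same (0.479 and 0.487 FPKM, and 1.42 and 1.46 FPKM).

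Most named genes beside these loci were not called in either direction. The nearest named locus was itself tested for 795 unnamed loci, which have 771 distinct neighbours, since some share one. Of the 771, 35 were called higher in KO (4.54%) and 48 lower, against a background over all 16213 tested named loci of 13.2% higher and 6.25% lower. That background includes named loci near silent in WT. Over the 13316 tested loci with a WT mean of at least 1 FPKM, 5.98% were called higher and 7.25% lower. The median log2 difference of the 771 was -0.02. Quantile normalization gave 31 higher and 97 lower, and the authors' matrix, in which the median of all tested loci was shifted by 0.21 log2, gave 314 higher and 4 lower, so no direction is read from the split. In the 666 pairs whose unnamed locus was called higher, the neighbour was higher in 30, lower in 36 and neither in 600, and the middle of these neighbours lay between -0.10 and 0.05 log2.

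The neighbours were well expressed genes. Their median WT level was 19.7 FPKM, against 8.79 FPKM over all tested named loci. The unnamed locus stood at a median of 0.126% of its neighbour's level in WT and 6.25% in KO. It exceeded its neighbour in 14 pairs in WT and in 37 in KO. Over the 795 pairs, Spearman's rho was 0.10 between the log2 differences of the 2 partners and 0.19 between their KO levels, a description over pairs that share libraries.

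**Figure D4:**
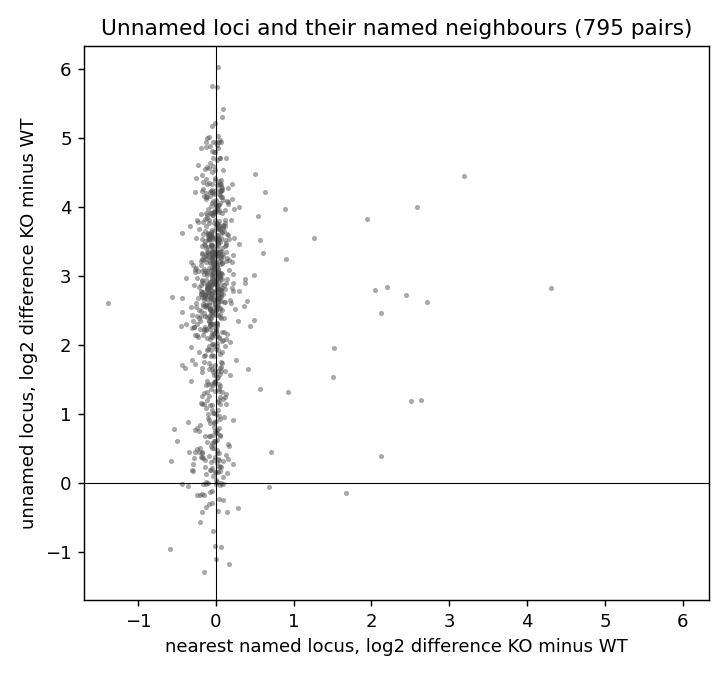
Log2 difference of KO minus WT of the unnamed locus (vertical axis) against that of its nearest named locus (horizontal axis), 1 point for each of 795 pairs, both axes to the same scale. The points form a column near 0 on the horizontal axis with most unnamed loci above 2, and few pairs lie to the right.

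Examples of each kind show the spread, chosen after their values were seen. Rpl31 was at 1007 FPKM in WT and 998 FPKM in KO, a difference of -0.01 log2, while its unnamed locus rose by 5.21. Nedd4, at 453 and 473 FPKM, differed by 0.06 log2. In a small number of pairs both rose, as with Ssc4d, a gene near silent in WT that went from 0.00578 to 0.545 FPKM while its unnamed locus went from 0.00523 to 1.67 FPKM. Col6a2, a collagen gene, fell from 48.9 to 36.3 FPKM (log2 -0.43, limma-trend adjusted p = 0.0013), while its unnamed locus, listed at 0 in all WT and HET libraries, averaged 0.491 FPKM in KO.

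The 6 KO libraries differed among themselves in how high the unnamed loci stood, and this order was the same as that of Zcchc8. From the lowest to the highest median over the 935 loci the libraries were KO1, KO2, KO4, KO3, KO6 and KO5, at 0.719, 1.01, 1.03, 1.10, 1.18 and 1.32 FPKM. Zcchc8 stood at 9.27, 14.4, 15.1, 15.1, 18.7 and 20.6 FPKM in the same libraries. The order was noticed in the data and no p is given. The median over all tested named loci in KO1 to KO6 was 8.37, 8.61, 8.49, 8.51, 8.84 and 8.89 FPKM and relative depth was 1.15, 1.18, 1.27, 1.49, 1.36 and 1.41, so KO1 was lowest in these as well, and their part in the order was not tested. Without KO1, 762 of the 935 loci were called higher than in WT.

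**Figure D5:**
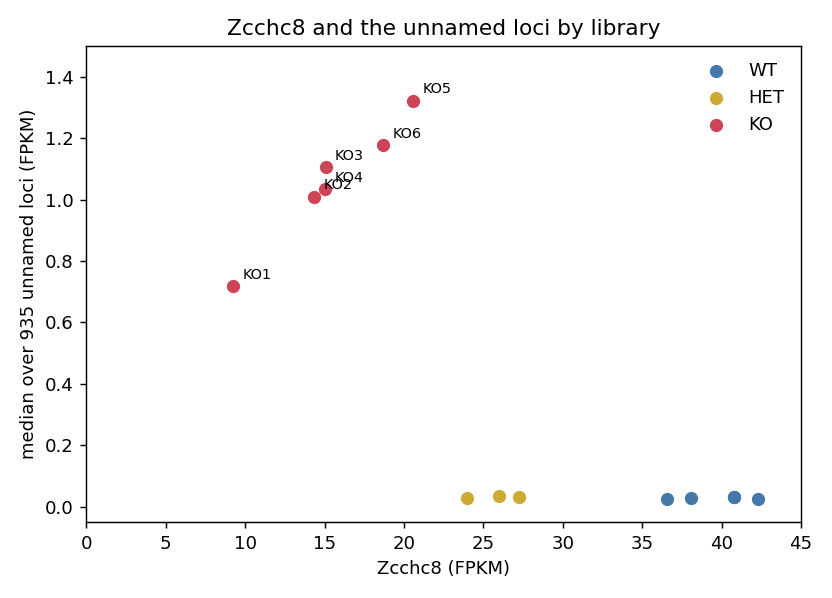
Median FPKM over the 935 unnamed loci (vertical axis) against Zcchc8 FPKM (horizontal axis), 1 point for each of the 14 libraries. The 3 genotypes form separate clusters; within KO the median goes from 0.719 FPKM in KO1 to 1.32 FPKM in KO5 as Zcchc8 goes from 9.27 to 20.6 FPKM.

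The genes of the decay pathway itself were mostly not called between KO and WT. This was also so for named loci at large, since 13.2% of the 16213 tested were called higher and 6.25% lower. Apart from Zcchc8, the tested NEXT genes Rbm7 and Skiv2l2 differed by -0.01 and 0.03 log2. None of 13 tested nuclear exosome genes was called by limma-trend, also at an unadjusted p under 0.05 (0 genes), with a median log2 difference of -0.01. Of 8 genes of the related PAXT connection (poly(A) tail exosome targeting) and of cap-binding adaptors, Srrt, which encodes the adaptor ARS2, was called higher (116 FPKM in WT, 143 FPKM in KO, log2 0.31). Of 28 genes of early termination and cleavage, Pcf11 and Cstf3 were higher (log2 0.55 and 0.22) and Ints10 lower (log2 -0.15).

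Markers of head tissues were checked because whole heads hold many cell types. Neural progenitor genes (6 tested) and neuron genes (4 tested) were present in every group, with summed levels of 595 to 687 FPKM in WT and 607 to 745 FPKM in KO for the first and 450 to 539 and 396 to 548 FPKM for the second. Of these genes, the Sox2 locus was called higher in KO (68.0 FPKM in WT, 79.9 FPKM in KO, log2 0.23, limma-trend adjusted p = 0.047). In KO, 7 of 9 lens genes, 2 of 6 skeletal muscle genes, 3 of 7 cartilage genes, 5 of 6 surface epithelium genes and 3 of 4 choroid plexus genes were lower and none higher. The background over all 16213 tested named loci was 6.25% lower and 13.2% higher. The summed lens level was 119 to 169 FPKM in WT and 31.6 to 163 FPKM in KO, and that of surface epithelium 83.0 to 118 FPKM in WT and 55.9 to 74.1 FPKM in KO. Muscle summed to 117 to 222 FPKM in WT and 29.4 to 160 FPKM in KO, cartilage to 215 to 306 and 152 to 272 FPKM, and choroid plexus to 101 to 141 and 56.1 to 106 FPKM. Pigment cell, endothelial and myeloid genes (5 tested each) were not called, and none had an unadjusted p under 0.05, while 1 of the 5 loci that hold the erythroid genes was higher. The part of these tissue differences in the levels of the unnamed loci was not tested.

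The limits that define the loci fall in a continuous range. Just inside the distance limit were the loci beside Crtac1, at 996 bases, and A430072C10Rik, at 998 bases, with KO means of 1.95 and 0.0910 FPKM. Just outside were those beside RP24-317K11.2, at 1014 bases, and the Mir22 locus, at 1021 bases, with KO means of 0.542 and 5.96 FPKM. Just inside the level limit, by the level that at least 3 libraries reached, were the loci beside Nxph4 (0.501 FPKM) and Got1 (0.502 FPKM). Just outside were those beside Cse1l (0.497 FPKM) and Dcp2 (0.499 FPKM), the second of which was listed at 0 in all WT and HET libraries and averaged 0.425 FPKM in KO.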

How the data were processed

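Whole-head RNA of 14 libraries had been made into stranded poly(A)-selected libraries per the labels' protocols, so RNA without a poly(A) tail is largely missed. Per the submitters' processing notes, the build was mm10 and the tools included Cuffdiff, Partek, TopHat2 2.1.0, FastQC 0.10.0 and bcl2fastq, without their roles. The strand setting and the gene models were not given in the sources used here. Each library has a table, deposited by the authors, of FPKM values for 67811 loci, in which 0 can be a failed estimate. The authors also deposited a log2 FPKM matrix of the whole series, quantile normalized and blank where FPKM is 0, which served only as an alternative. The files hold no counts, so depth is unknown and no counting interval can be given.

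The loci, gene lists and named loci were chosen with earlier results of these data known. Starts in the tables count from 0 and are written from 1. Gaps were taken between locus ranges, and places from GENCODE M21 (window 1000 bases). Strand was read from the order of the loci in the tables. A locus is named by the gene whose start it lies beside, otherwise by its nearest named locus. Named are the 12 largest rises (called, KO mean at least 1 FPKM, every KO library above every WT library), all called lower, the 6 highest in WT, the top 2 of each neighbour list, and those next to each limit. Loci named after their values were seen are marked as such in the text. The values of 2 loci of the lists are not reported here.

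Values were analysed as log2(FPKM + 0.1). One limma-trend fit with robust moderation (limma 3.58.1, R 4.3.3) of all 14 libraries, a mean per genotype and no covariate, covered the 18217 loci at 0.5 FPKM or more in at least 3 libraries, and p-values were adjusted over all of them by the Benjamini-Hochberg method, with a threshold of 0.05. The fit was tested on simulated data. Zcchc8 was also compared by a two-sided exact permutation test of FPKM values (scipy 1.17.1, Python 3.11.15). Promoters are RefSeq GRCm38.p6. As alternatives, pseudocounts of 0.5 and 1, no filter, a stricter filter (1 FPKM in 5 libraries), other scalings, a replicate block, library weights, the compared groups alone and leaving out each library were tried.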

Additional observations from a re-analysis of the deposited data

Results flagged for a closer look

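Of 80 groups of 5 or 6 libraries examined, 13 held a library far from the others. The chance rate of about 1 in 20 groups does not hold for loci with many values of 0. Where all other libraries were at 0, any value above 0 was flagged, so no excess over chance is read from the 13. Among the WT libraries, the unnamed loci beside Tmem183a (0.0738 FPKM in WT2), Clptm1l (0.0490 FPKM in WT2), Eif1 (0.00798 FPKM in WT4) and Zcchc8 (0.0753 FPKM in WT5) were each above 0 in that library alone. The locus beside Rpl31 was at 0.101 FPKM in WT1, against at most 0.0348 FPKM in the other WT libraries.

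The other flags fell mostly on loci under 300 bases that were high in WT. The locus beside Gm16216 reached 155 FPKM in WT4 (next highest WT library 67.1), that beside Gm9449 reached 20.2 FPKM in WT4 (next 8.34), and that beside Chd9 was at 148 FPKM in WT3 and at 0 in the other WT libraries. Among the KO libraries, the locus beside Zfp422-ps was at 303 FPKM in KO5 (next 163), that beside Aff2 at 16.8 FPKM in KO5 (next 9.11), that beside Chd9 at 216 FPKM in KO3 (next 60.0), and that beside A430072C10Rik at 0.546 FPKM in KO6 and at 0 in the other KO libraries. KO1 stood apart as a library, with 637 unnamed loci at 0.5 FPKM or more against 790 to 853 in the other KO libraries.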

How the results depend on the processing

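The number of unnamed loci called higher in KO than in WT was 766 as reported and 589 to 776 under the pseudocounts, no filter, the scalings, the replicate block (746), library weights and the compared groups alone. It was 957 when all unnamed loci within 1 kb were counted with no filter, and 341 under the stricter filter, which left 393 of the loci. The same 589 loci were called in the deposited FPKM, under quantile normalization and with a common median, and 518 of these also in the matrix of the authors, which gave values for 829 loci. The median log2 difference over the loci was 2.76 as deposited, 3.66 in the authors' matrix, 2.75 with a common median and 1.41 with quantile normalization. Leaving out each library in turn gave 749 to 771 higher and 0 to 2 lower in KO than in WT, 0 to 1 higher and 0 to 1 lower in HET than in WT, and 718 to 745 higher and 0 to 3 lower in KO than in HET. Among the loci that passed in WT and HET alone it gave 61 to 66 higher and 0 to 2 lower, among the nearest named loci 32 to 40 higher and 27 to 72 lower, and among all tested loci 3232 to 3620 higher and 675 to 1247 lower. The lower counts moved by over 1.5 times for the nearest named loci without WT3 (31) or WT4 (27) and for all tested loci without WT4 (675) or KO4 (676).

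The loci called lower in KO than in WT, 1 as reported, numbered 0 with no filter, 33 under quantile normalization, 10 in the authors' matrix and 2 with library weights, and among those passing in WT and HET alone 0, 21, 3 and 2 in the same order. In HET against WT the authors' matrix gave 1 lower. In KO against HET the stricter filter gave 335 higher, and the lower calls numbered 0 with no filter and with the compared groups alone, 2 in the authors' matrix, 25 after quantile normalization, 2 with the replicate block and 2 when all unnamed loci within 1 kb were counted. The nearest named loci gave 314 higher and 4 lower in the authors' matrix, and 97 lower after quantile normalization, 31 with the replicate block and 94 with library weights. All tested loci gave 1844 higher under the stricter filter, 7347 higher and 282 lower in the authors' matrix, and lower counts of 3801 after quantile normalization (2338 higher), 645 with the replicate block and 1632 with library weights. Except where fewer loci were tested, the cause was not tested. Deviations of same-numbered libraries from their group means correlated at -0.114 to 0.1 over all tested loci. These values show no clear pairing by replicate number but cannot exclude it, since each group's own mean was removed first. Among the named loci, 834 values kept their call and direction, 18 lost the call, 1 gained it (Smad4, 0.45 log2 in the authors' matrix) and 1 reversed (Nxph4, -0.40 log2 after quantile normalization, from 1.66). Depth is unknown, so a locus listed at 0 cannot be told from one too low to detect.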
